A study of Mus musculus with 6 samples.

Results

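The genes of fatty acid elongation and cholesterol synthesis were examined in cultured muscle stem cells (MuSCs). They comprised 39 genes, chosen by symbol from the known enzymes and regulators of both pathways, of 18943 genes in the table. All 39 had a row and passed the filter of a mean value of at least 5. MuSCs were purified by FACS from 8 weeks old WT mice of the C57BL/6 strain and kept in culture for 5 days with DMSO, ET-3 (endothelin-3) or NT (neurotensin). Both ligands are peptides that act on G protein-coupled receptors, and the control cultures held the solvent DMSO. RNA-seq of each of the 3 groups was represented by 2 libraries, whereas the design text speaks of triplicates. The sample labels give a ligand dose of 100 nM, and the culture methods of the study give higher doses. Nothing in the labels states that the 2 libraries of a group came from separate cultures or animals, so that p-values measured the spread between these libraries, which may be technical.

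Cells build fatty acids from acetyl-CoA and malonyl-CoA. The product of fatty acid synthase is then lengthened in the endoplasmic reticulum by a cycle of condensation, reduction, dehydration and a further reduction, while desaturases insert double bonds. Cholesterol is made from the same acetyl-CoA by way of mevalonate, farnesyl diphosphate and squalene, and the SREBP transcription factors, their escort SCAP and the INSIG retention proteins adjust the transcription of both pathways to the sterol content of the membrane.

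The values summed to 4214458 to 4600575 per library, and the values had the pattern of read counts scaled by a factor of their library and rounded to a whole number. The member genes had between 0.00279 and 0.267 reads per exonic base on average, and 7 of them lay under 0.03. The label of the cells was checked against marker genes. All 10 listed MuSC markers had a row, with a summed value of 9548 and 10472 in the DMSO libraries, 9226 and 9512 under ET-3 and 7950 and 8298 under NT. Of the 8 tested, 3 were higher and 3 lower under ET-3, and 3 were higher and 5 lower under NT. Pax7, the defining transcription factor of MuSCs, rose from 857 and 1070 in DMSO to 1730 and 1754 under ET-3 and 1599 and 1653 under NT. Cdh15, the adhesion molecule M-cadherin, fell from 1547 and 1746 to 483 and 462 under ET-3 and 496 and 436 under NT, and Des and Itga7 were also lower under both ligands. Calcr, the calcitonin receptor of quiescent MuSCs, was at 0 to 3 and Chodl at 2 to 7 in every library. The 8 listed genes of differentiating muscle summed to 13140 and 14616 in the DMSO libraries and to 335 to 481 in the 4 treated libraries, and all 8 passed the test as lower under both ligands. The 8 listed proliferation genes summed to 5714 and 6071 in DMSO and to 8091 to 8837 in the treated libraries, and all 8 were higher under both ligands. All 5 smooth muscle and pericyte markers had a row. They summed to 1746 and 2203 in DMSO and to 289 to 428 in the treated libraries, and 3 of 3 tested were lower under both ligands. Notch3 alone had 1397 and 1773 in DMSO, so that the sum is mainly that of Notch3. Pdgfrb fell from 227 and 278 in DMSO to 4 and 3 under ET-3 and 13 and 10 under NT. Rgs5 fell from 117 and 150 to 4 and 2 under ET-3 and 3 and 5 under NT. Myh11 lay at 0 to 4 and Kcnj8 at 0 to 2 in every library. Of the 7 listed adipocyte genes, 2 had a row, and their sum was between 1 and 4 in every library. Fibroadipogenic markers summed to 127 and 146 in DMSO and 28 to 50 in the treated libraries, with 2 of 3 tested lower under both ligands and Pdgfra higher under NT. Endothelial markers summed to 62 and 64 in DMSO and 98 to 128 in the treated libraries and went both ways. Of 4 tested, 2 were higher and 1 lower under ET-3, and 3 were higher and 1 lower under NT. Tek went from 2 and 1 to 68 and 59 under ET-3 and 42 and 70 under NT, whereas Vwf went from 38 and 52 to 14 and 26 and to 13 and 21. Macrophage markers lay between 21 and 45 and Schwann cell markers between 17 and 44 in every library. The differentiation and proliferation markers and the 3 tested pericyte markers thus moved with the same contrasts as the lipid genes described next. Their part in those results was not tested. In RNA of a bulk culture, fewer cells of a type and less RNA per cell cannot be told apart.

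To show the upstream sequence of the genes, promoter stretches were taken from RefSeq on GRCm38.p6. A window of 250 bases before to 50 bases after a start was at hand for 33 of the 39 genes. The CCAAT box is the run of letters CCAAT, to which NF-Y binds. It stood in the 250 bases before a start in 24 of 33 genes (72.7%), against 40.7% of the 10350 tested genes with a window. It was found in 5 of 5 genes of the mevalonate segment and 7 of 7 of the sterol branch that had a window. The GC box GGGCGG stood in 27 of 33 genes (81.8%), against 64.4% of the tested genes, and the sterol regulatory element core TCACNCCAC in 1 of 33 (3.03%), against 1.2%. All motifs were searched on both strands of the 250 bases before a start, and not in the 50 bases after it. A match is a description of letters, and binding was not measured.

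The stretches below show the gene with the single sterol regulatory element match, Hmgcs1, and genes of the mevalonate segment, the sterol branch and fatty acid synthesis with the CCAAT box. Each reads 5′ to 3′ on the strand of its gene, and capitals mark the CCAAT box, written ATTGG where it lies on the other strand, and in Hmgcs1 also the TCACNCCAC match. The stretch of Hmgcs1 lies at chr13:119690104-119690320 on the plus strand, that of Mvk at chr5:114444086-114444268 on the plus strand and that of Mvd at chr8:122443435-122443492 on the minus strand. That of Lss lies at chr10:76531533-76531557 on the plus strand, and that of Fasn at chr11:120824592-120824647 on the minus strand. None of these bases lies in an annotated exon. In Fasn, 2 of the 3 matches overlap in the run CCAATTGG.
Hmgcs1: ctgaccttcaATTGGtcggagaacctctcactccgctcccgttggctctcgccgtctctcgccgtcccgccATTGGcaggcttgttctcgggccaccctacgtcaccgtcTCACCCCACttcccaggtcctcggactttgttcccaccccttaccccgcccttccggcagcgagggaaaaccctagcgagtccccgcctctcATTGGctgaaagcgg
Mvk: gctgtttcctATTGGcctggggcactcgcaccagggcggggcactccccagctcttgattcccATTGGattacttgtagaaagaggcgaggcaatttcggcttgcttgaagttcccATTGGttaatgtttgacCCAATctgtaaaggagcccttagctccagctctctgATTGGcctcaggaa
Mvd: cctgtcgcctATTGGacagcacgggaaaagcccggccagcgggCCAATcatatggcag
Lss: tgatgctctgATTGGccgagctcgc
Fasn: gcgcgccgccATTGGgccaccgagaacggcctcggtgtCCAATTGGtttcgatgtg

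**Figure D1:**
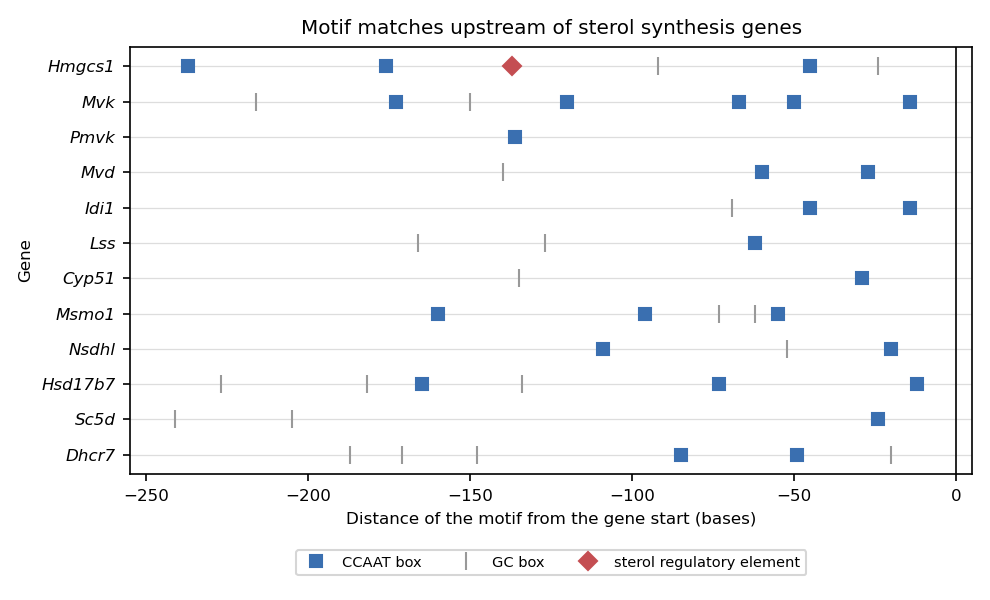
Motif matches before the start of the 12 mevalonate and sterol branch genes with a promoter window. The horizontal axis gives the distance from the gene start in bases; squares mark the CCAAT box, bars the GC box and the diamond the sterol regulatory element core. The 2 windows of Dhcr7 are drawn on 1 line. Every gene has at least 1 CCAAT box, Mvk has 5, and the diamond is found in Hmgcs1 alone.

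Treatment with ET-3 moved most of the lipid synthesis genes, in both directions within every role but the mevalonate segment, where all fell. Of the 39 genes, 12 were higher and 25 lower than in DMSO at an adjusted p of at most 0.05, and 2 did not pass (limma, Benjamini-Hochberg adjusted over 13921 genes). Among all tested genes, 30.6% were called higher and 33.2% lower, so that the share of members called higher, 30.8%, lay near the background and the share called lower, 64.1%, above it. Past a fold of at least 2, 2 members were higher and 4 lower, where 6.62% and 14.9% of all tested genes were. Both of these shares of the members lay under the background. The median log2 fold change of the members was -0.55, against -0.01 over all tested genes.

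With NT, 13 of the 39 genes were higher and 21 lower than in DMSO, and 5 did not pass. The background was 29.7% higher and 32.5% lower. With the fold of at least 2, 2 members were higher and 3 lower, where 7.3% and 13.2% of all tested genes were. Here too, both shares of the members lay under the background. The median of the members was -0.35, against -0.01 over all tested genes. Both comparisons used the same DMSO libraries and were therefore not independent of each other. The share of all genes called depended on scaling: with each library scaled to the same total, 37.3% of genes were higher and 26.6% lower under NT, and the members counted 14 and 19, while the median of all genes moved from -0.01 to 0.10.

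The libraries of a ligand differed by about sampling noise. The mean chi-square per gene was 0.885 between the ET-3 libraries and 0.927 between the NT libraries, against 1.439 between the DMSO libraries. When each treated pair was averaged and counted as 1 sample, 2 members were higher and 15 lower under ET-3 (10.5% and 18.2% of all tested genes), and 2 were higher and 9 lower under NT (9.16% and 15.7%). Fads1 and Scap were the members called higher in that fit. Acss2, Hacd1 and Pmvk were called lower in it under both ligands, whereas Elovl4, Acaca, Fasn and Fdft1 did not pass for ET-3 (adjusted p = 0.0848, 0.0775, 0.0593 and 0.0513, limma) nor for NT (adjusted p = 0.0943, 0.0634, 0.0649 and 0.0653, limma).

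**Figure D2:**
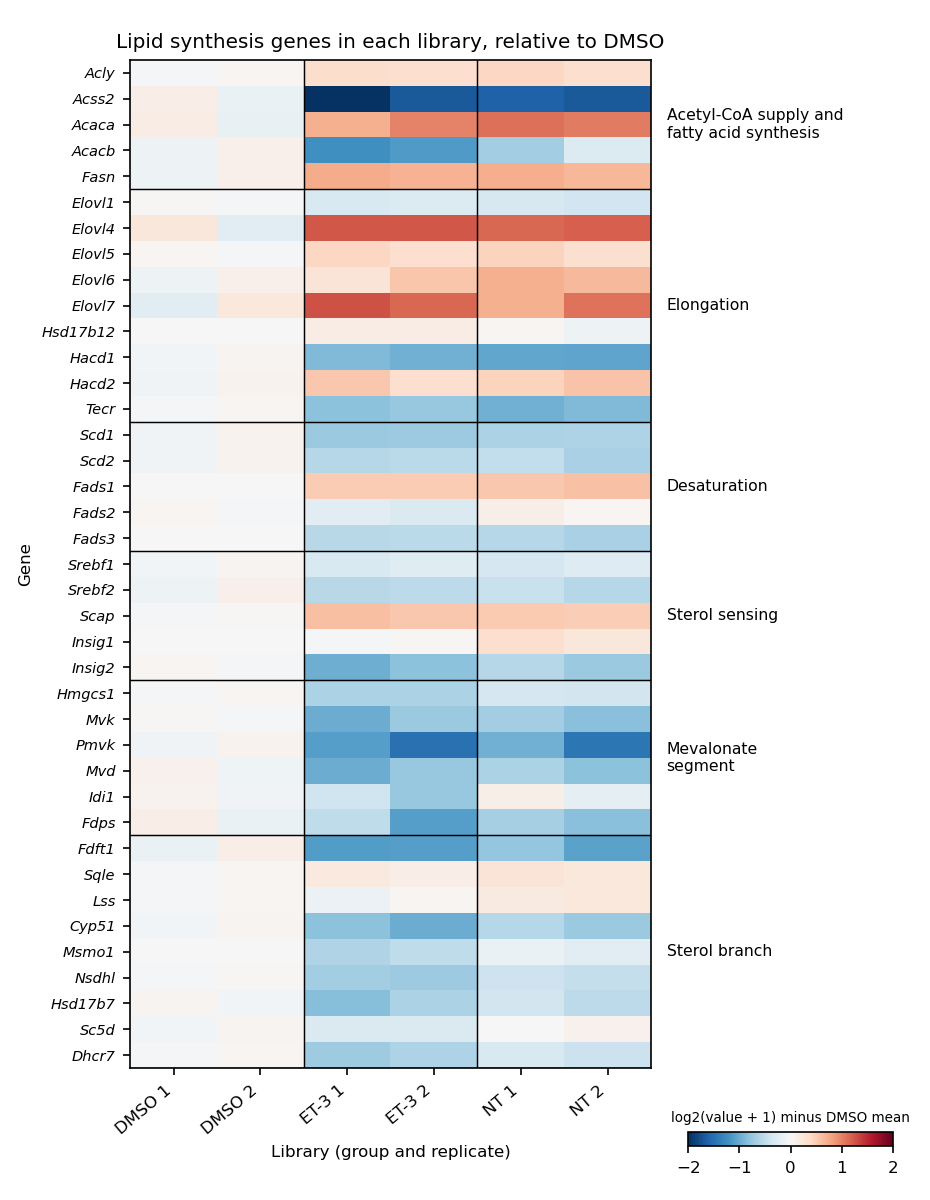
Values of the 39 genes in the 6 libraries, as log2(value + 1) minus the mean of the 2 DMSO libraries, with red for higher and blue for lower; rows are genes grouped by role and columns are libraries. Acss2 is the most strongly blue row in the treated libraries, Elovl4 and Elovl7 are red, and the mevalonate segment and most of the sterol branch are blue.

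At the entry of the fatty acid pathway, the genes for acetyl-CoA supply and fatty acid synthesis split. Acss2, which makes acetyl-CoA from acetate, had values of 172 and 142 in DMSO, 39 and 48 under ET-3 and 50 and 48 under NT. Every treated library lay far below both DMSO libraries. Acss2 (chr2:155517948-155585724, plus strand) was 3.55-fold lower under ET-3, a log2 fold change of -1.83 ± 0.17 (SE, n = 2 per group; adjusted p = 7.32e-06, limma), and 3.15-fold lower under NT (-1.65 ± 0.17, adjusted p = 1.6e-05). It was the member with the largest change under both ligands.

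Acly, the enzyme that makes cytosolic acetyl-CoA from citrate, moved the other way, from 849 and 899 in DMSO to 1121 and 1104 under ET-3 and 1160 and 1100 under NT, a rise of 1.27-fold and 1.29-fold. The acetyl-CoA carboxylases also separated. Acaca, which makes the malonyl-CoA used in fatty acid synthesis, had 240 and 196 in DMSO, 357 and 432 under ET-3 and 466 and 448 under NT. All treated libraries were above the DMSO libraries. The log2 fold change of Acaca (chr11:84129672-84401651, plus strand) was 0.85 ± 0.11 under ET-3 (adjusted p = 6.36e-05) and 1.07 ± 0.11 under NT (adjusted p = 1.33e-05, both limma).

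Acacb encodes the carboxylase at mitochondria, whose malonyl-CoA restrains fatty acid import for oxidation. Its values were low, at 34 and 39 in DMSO, 15 and 16 under ET-3 and 22 and 30 under NT. Acacb fell under ET-3 (-1.18 ± 0.26, adjusted p = 0.0026), whereas the NT value of -0.49 ± 0.26 did not pass (adjusted p = 0.129, both limma), and the difference between the ligands of 0.70 on the log2 scale did not pass either (adjusted p = 0.174). Fasn, fatty acid synthase itself, had 1590 and 1813 in DMSO, 2839 and 2749 under ET-3 and 2800 and 2687 under NT. The treated libraries stood close together above the DMSO libraries, with a fold of 1.65 for ET-3 and 1.62 for NT. Per kb of exon, the Fasn level was 155 in DMSO, 255 under ET-3 and 251 under NT, and that of Acaca 12.8, 23.1 and 26.8.

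**Figure D3:**
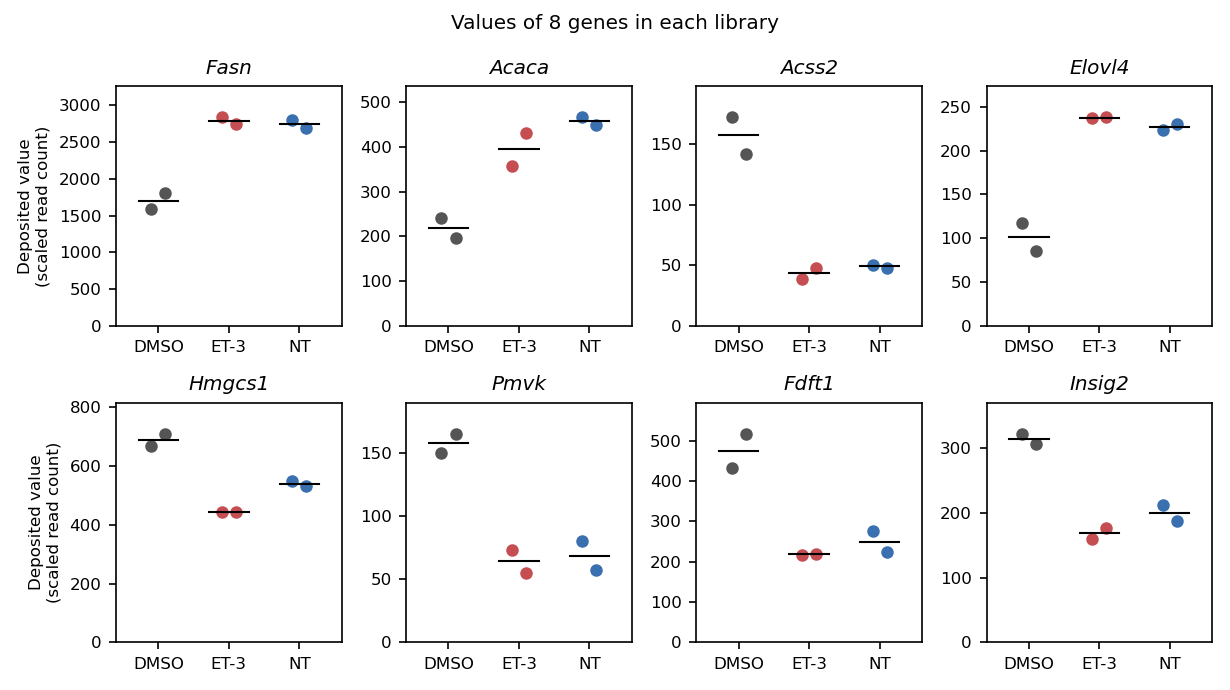
Deposited values (scaled read counts, axis from 0) of 8 genes in each of the 6 libraries; points are libraries and the short lines are group means. Fasn, Acaca and Elovl4 are higher in all treated libraries than in both DMSO libraries, and Acss2, Hmgcs1, Pmvk, Fdft1 and Insig2 are lower.

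Of the elongation genes, 6 rose and 3 fell under ET-3, and under NT 5 rose and 3 fell of 9. Of all tested genes, 30.6% rose and 33.2% fell under ET-3, and 29.7% rose and 32.5% fell under NT. The condensing elongases mostly rose. Elovl4, which acts on very long chains, had 117 and 85 in DMSO, 237 and 238 under ET-3 and 223 and 230 under NT. The groups did not overlap, and Elovl4 (chr9:83778692-83806277, minus strand) was 2.37-fold higher under ET-3 (1.24 ± 0.13, adjusted p = 1.85e-05) and 2.26-fold higher under NT (1.18 ± 0.13, adjusted p = 2.93e-05, both limma). Elovl7, an elongase of saturated long chains, had low values of 8 and 11 in DMSO, 24 and 22 under ET-3 and 16 and 21 under NT. On the log2 scale Elovl7 changed by 1.21 ± 0.31 under ET-3 (adjusted p = 0.0059) and 0.90 ± 0.31 under NT (adjusted p = 0.0268, both limma), and the NT call was lost without the first DMSO library or without the second NT library. Leaving out the first DMSO library left 1 member past the fold of 2 upward under ET-3.

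Elovl6, which lengthens palmitate, had 280 and 323 in DMSO, 360 and 440 under ET-3 and 491 and 470 under NT. Elovl5, an elongase of polyunsaturated fatty acids, had 407 and 385 in DMSO, 529 and 499 under ET-3 and 541 and 497 under NT. Both rose under both ligands, and the Elovl6 call for ET-3 was lost without the first DMSO or the second ET-3 library. Elovl1, an elongase of saturated very long chains, fell from 478 and 458 to 377 and 387 under ET-3 and 375 and 360 under NT, so that 4 of the 5 elongases among the members were higher and 1 was lower.

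The genes of the later steps of the elongation cycle went both ways. Hacd1, a dehydratase known from skeletal muscle, had 313 and 337 in DMSO, 175 and 167 under ET-3 and 158 and 155 under NT. It was lower in all treated libraries, with a log2 fold change of -0.92 ± 0.08 under ET-3 (adjusted p = 3.87e-06) and -1.05 ± 0.08 under NT (adjusted p = 1.69e-06, both limma). The gene lies at chr2:13850282-14056135 on the minus strand. Its paralog Hacd2, a dehydratase of wide expression, rose from 81 and 89 to 124 and 108 under ET-3 and 116 and 126 under NT. The Hacd2 calls were lost without the first DMSO library, that for ET-3 also without the first ET-3 library and that for NT without the second NT library.

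Tecr, the enoyl reductase that closes the cycle, fell from 724 and 765 to 423 and 440 under ET-3 and 381 and 403 under NT. Hsd17b12, the ketoacyl reductase, had 504 and 510 in DMSO, 564 and 564 under ET-3 and 520 and 472 under NT. Its rise under ET-3 was 1.11-fold (adjusted p = 0.0374, limma) and was lost without either DMSO library or either ET-3 library, and the NT value of -0.03 did not pass.

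Among the desaturases, 4 of 5 fell and 1 rose under ET-3, and 3 fell and 1 rose under NT. Of all tested genes, 33.2% fell and 30.6% rose under ET-3, and 32.5% fell and 29.7% rose under NT. Scd1 and Scd2 encode delta-9 desaturases, which turn saturated into monounsaturated fatty acids. Scd1 had 833 and 909 in DMSO, 522 and 523 under ET-3 and 558 and 565 under NT, and Scd2 had 1744 and 1904, then 1233 and 1257, then 1290 and 1166. Both were lower in every treated library. The log2 fold change of Scd1 (chr19:44394455-44407879, minus strand) was -0.73 ± 0.05 under ET-3 (adjusted p = 1.24e-06) and -0.63 ± 0.05 under NT (adjusted p = 3.95e-06, both limma). Reads that aligned to several regions were left out by the authors, so stretches that the Scd genes share may be missing from these values.

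The Fads genes, which lie side by side on chromosome 19, moved apart. Fads1, a desaturase of polyunsaturated fatty acids, rose from 452 and 458 in DMSO to 646 and 646 under ET-3 and 660 and 683 under NT. Fads3 (chr19:10041569-10060110, plus strand), which acts on sphingoid bases, fell from 1288 and 1297 to 879 and 888 under ET-3 and 870 and 823 under NT, or by 0.55 ± 0.04 on the log2 scale under ET-3 (adjusted p = 2.98e-06, limma) and by 0.61 ± 0.04 under NT (adjusted p = 1.51e-06, limma). Fads2, the entry desaturase of polyunsaturated fatty acids, had 412 and 391 in DMSO, 346 and 327 under ET-3 and 436 and 411 under NT. It fell under ET-3 (-0.25, adjusted p = 0.00454, limma), while the NT libraries overlapped the DMSO libraries (0.08, adjusted p = 0.303).

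**Figure D4:**
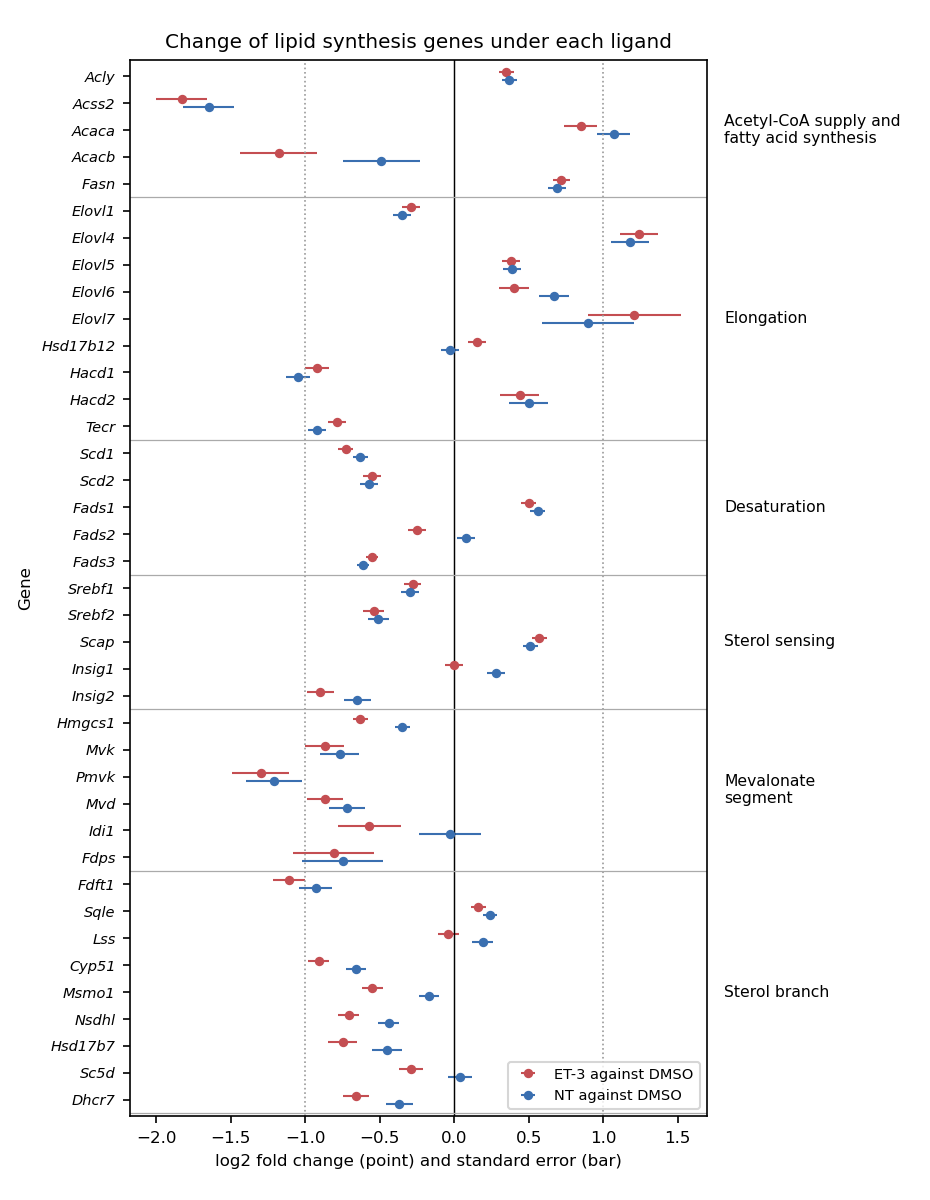
Log2 fold change against DMSO of each of the 39 genes (horizontal axis) with its standard error (bar), for ET-3 (red) and NT (blue); dotted lines mark a fold of 2. Acss2 lies farthest to the left at -1.83 and -1.65, Elovl4 to the right at 1.24 and 1.18, and all 6 mevalonate genes lie left of 0.

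The regulators of sterol sensing were mixed. Srebf2, the SREBP gene linked mainly to cholesterol synthesis, fell from 1783 and 2054 in DMSO to 1299 and 1325 under ET-3 and 1403 and 1289 under NT, and Srebf1, linked more to fatty acids, from 605 and 659 to 509 and 531 and to 500 and 529. Scap, the escort of SREBP, rose from 552 and 571 to 852 and 813 under ET-3 and 805 and 793 under NT. For Scap (chr9:110333288-110384950, plus strand) the change on the log2 scale was 0.57 ± 0.05 under ET-3 (adjusted p = 3.52e-06) and 0.51 ± 0.05 under NT (adjusted p = 8.17e-06, both limma).

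The INSIG genes, which keep SCAP in the endoplasmic reticulum, differed from each other. Insig2 had 322 and 307 in DMSO, 160 and 177 under ET-3 and 212 and 188 under NT. Both treated groups lay below DMSO, and the log2 fold change of Insig2 (chr1:121304353-121332589, minus strand) was -0.90 ± 0.09 under ET-3 (adjusted p = 1.08e-05) and -0.65 ± 0.09 under NT (adjusted p = 0.000109, both limma). Insig1, a known target of SREBP, had 288 and 292 in DMSO, 286 and 295 under ET-3 and 365 and 341 under NT. ET-3 and DMSO overlapped (0.00, 95% interval -0.14 to 0.14), and NT was 1.22-fold higher than DMSO (adjusted p = 0.00306, limma).

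In the mevalonate segment, all 6 genes fell under ET-3 and 5 of 6 under NT, where 33.2% and 32.5% of all tested genes fell. The calls count the 2 libraries of a ligand as replicates, although they differed by about sampling noise. Fewer of these calls passed under either ligand with each treated pair averaged. Of the 6 genes, 0 were higher in either comparison, also at an unadjusted p under 0.05 and with voom weights (limma). The median over these genes was -0.84 on the log2 scale for ET-3 and -0.74 for NT. Pmvk, phosphomevalonate kinase, changed most, with 150 and 165 in DMSO, 73 and 55 under ET-3 and 80 and 57 under NT. The treated libraries were all below DMSO, and Pmvk (chr3:89454541-89469013, plus strand) was 2.46-fold lower under ET-3 (-1.3 ± 0.19, adjusted p = 0.000195) and 2.31-fold lower under NT (-1.21 ± 0.19, adjusted p = 0.000335, both limma).

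Mvk, mevalonate kinase, acts just before it and is the gene with 5 CCAAT boxes in the stretch printed above. Its values were 154 and 149 in DMSO, 76 and 90 under ET-3 and 93 and 84 under NT, a log2 fold change of -0.87 ± 0.13 (adjusted p = 0.000214) and -0.77 ± 0.13 (adjusted p = 0.000494, both limma). Mvd, the decarboxylase that follows, fell from 213 and 190 to 101 and 119 under ET-3 and 130 and 114 under NT. The 3 consecutive steps from mevalonate to isopentenyl diphosphate were thus lower in each treated library than in each DMSO library. Most members were separated in this way. Under ET-3, 25 members lay wholly below DMSO, 12 wholly above, and 2 overlapped. Under NT these counts were 22, 13 and 4. The separation therefore does not set these steps apart from the other members, and its share over all genes is not given here.

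Hmgcs1, the HMG-CoA synthase that opens the pathway, had 669 and 709 in DMSO, 443 and 444 under ET-3 and 547 and 531 under NT. The 3 groups did not overlap, under NT between DMSO and ET-3. Idi1, the isomerase of isopentenyl diphosphate, had 54 and 49 in DMSO, 39 and 30 under ET-3 and 56 and 45 under NT. Its fall under ET-3 (-0.57, adjusted p = 0.0373, limma) was lost without either DMSO library, without the second ET-3 library and without either NT library, and the NT value of -0.03 did not pass. Fdps, which makes farnesyl diphosphate, had 46 and 38 in DMSO, 29 and 19 under ET-3 and 26 and 23 under NT, and its calls (adjusted p = 0.023 and 0.0323, limma) were lost without either DMSO library, the ET-3 call also without the second ET-3 library and the NT call without either NT library.

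In the sterol branch, 7 of 9 genes fell and 1 rose under ET-3, and 6 fell and 2 rose under NT. Of all tested genes, 33.2% fell and 30.6% rose under ET-3, and 32.5% fell and 29.7% rose under NT. The same limit of the 2 libraries per ligand applies to these calls, and fewer of them passed under either ligand with each treated pair averaged. Fdft1, squalene synthase, which commits farnesyl diphosphate to sterols, had 433 and 517 in DMSO, 217 and 220 under ET-3 and 275 and 224 under NT. The groups were apart, and Fdft1 (chr14:63145150-63179578, minus strand) was 2.16-fold lower under ET-3 (-1.11 ± 0.11, adjusted p = 9.38e-06) and 1.90-fold lower under NT (-0.93 ± 0.11, adjusted p = 3.6e-05, both limma). Cyp51, the lanosterol demethylase, had 674 and 722 in DMSO, 394 and 351 under ET-3 and 468 and 418 under NT, a log2 fold change of -0.91 ± 0.07 (adjusted p = 3.24e-06) and -0.66 ± 0.07 (adjusted p = 3.45e-05, both limma).

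The enzymes between these were not called lower. Sqle, squalene epoxidase and a rate-limiting step, had 401 and 419 in DMSO, 468 and 448 under ET-3 and 492 and 477 under NT, a rise of 1.12-fold (adjusted p = 0.0265) and 1.18-fold (adjusted p = 0.00329, both limma). Lss, lanosterol synthase, had 302 and 321 in DMSO, 287 and 320 under ET-3 and 353 and 360 under NT. ET-3 overlapped DMSO (-0.04, adjusted p = 0.651) and the NT libraries were above it (0.19, adjusted p = 0.0343, both limma), and that NT call was lost without either DMSO or either NT library. The Sqle call under ET-3 was lost without the first DMSO library, without the first ET-3 library and without either NT library.

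The genes after lanosterol demethylation fell under ET-3, and 4 of these 5 also under NT. Nsdhl and Hsd17b7, which act in removal of the methyl groups at carbon 4 together with Msmo1, had 309 and 316 and 304 and 282 in DMSO. With ET-3 these were 193 and 188 and 161 and 188, and under NT 234 and 225 and 227 and 203. Msmo1, the methylsterol oxidase, had 339 and 337 in DMSO, 223 and 238 under ET-3 and 309 and 290 under NT. Its NT change of -0.17 passed narrowly (adjusted p = 0.0448, limma) and was lost without either DMSO or either NT library.

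Dhcr7, which completes one of the routes to cholesterol, had 230 and 245 in DMSO, 145 and 155 under ET-3 and 192 and 176 under NT. Its NT call was lost without the second NT library, and that of Hsd17b7 without the first DMSO library. Sc5d, the sterol desaturase just before it, had 214 and 231 in DMSO, 182 and 181 under ET-3 and 221 and 235 under NT. Sc5d fell under ET-3 (-0.29, adjusted p = 0.00834, limma), and NT overlapped DMSO (0.04, adjusted p = 0.714).

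Levels between genes were compared as the mean value per kb of exon. In DMSO, Fads3 (341), Tecr (340) and Scd2 (334) were the highest of the 39 genes, and Elovl7 (2.37), Acacb (3.79) and Fdps (9.98) the lowest. In the sterol branch the DMSO level per kb was highest for Cyp51 (158) and lowest for Lss (28.9). The length used joins all annotated exons of a gene, 10787 bases for Lss, and a long annotation lowers the level per kb. By mean value in DMSO, Sc5d (222.5) was the lowest of the branch and Lss was at 311.5. With ET-3 Cyp51 was at 84.4 per kb and Sqle at 82.6, where in DMSO Sqle was at 73.9.

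The ligands were compared with each other in the same fit. NT was higher than ET-3 for 3 of the 39 genes, Fads2, Hmgcs1 and Msmo1, where 0.647% of all tested genes were called higher. It was lower for 0, where 2.05% of all tested genes were (limma). At an unadjusted p under 0.05, 14 members were higher and 2 lower, where 2765 of the 13921 tested genes passed in either direction. With voom weights 7 members were called higher and 0 lower, where 1.76% and 4.68% of all tested genes were. The log2 difference was 0.38 ± 0.07 for Msmo1, 0.33 ± 0.06 for Fads2 and 0.28 ± 0.05 for Hmgcs1 (adjusted p = 0.0379 for each, limma). For all 3 genes both NT libraries lay above both ET-3 libraries, as for 19 of the 39 members. The 3 genes were picked by the test on these same libraries, so this adds no support. None of the 3 calls held when any 1 library was left out, and the number of members called was between 0 and 7 over the alternatives.

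In the mevalonate segment and the sterol branch the difference NT minus ET-3 was above 0 for 15 of 15 genes, with a median of 0.25 and a range of 0.06 to 0.54, where 56.7% of all tested genes were above 0. These 15 genes come from the same 4 libraries and are not replicates. With a trend against reads per exonic base removed, an alternative chosen after seeing the data, 14 of 15 were above 0. Leaving out 1 library also turned some of these differences below 0. Mvk was at -0.03 without the first ET-3 library. Without the second ET-3 library Pmvk was at -0.11 and Fdps at -0.24, and without the first NT library they were at -0.15 and -0.03. The largest difference was that of Idi1 (0.54, 95% interval 0.06 to 1.02), which did not pass (adjusted p = 0.197, limma). Outside these segments the differences were small for Fasn (-0.03, 95% interval -0.16 to 0.11), Scd2 (-0.02, -0.15 to 0.11) and Elovl5 (0.01, -0.13 to 0.15).

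**Figure D5:**
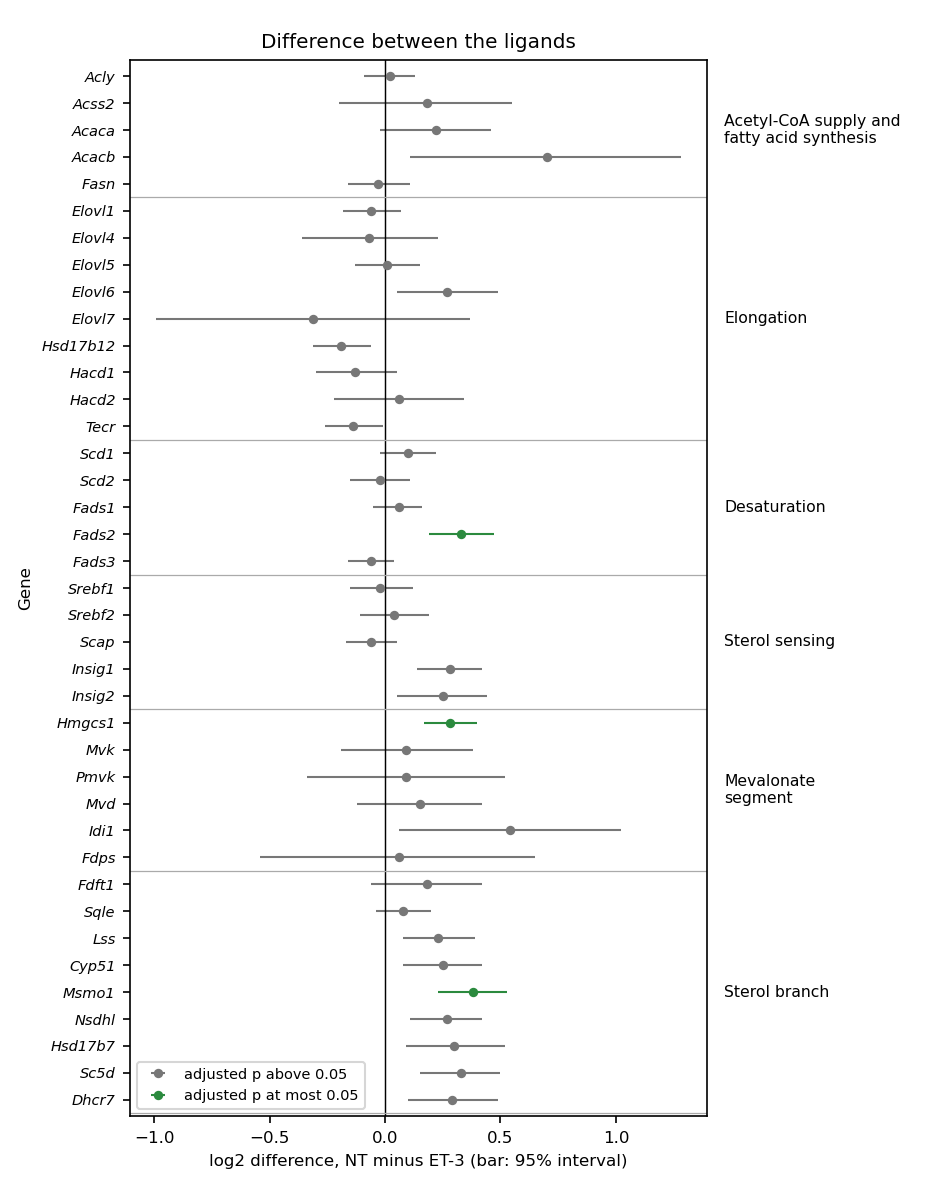
Log2 difference NT minus ET-3 for each of the 39 genes with its 95% interval (bar); green marks an adjusted p of at most 0.05. The 3 green genes are Fads2, Hmgcs1 and Msmo1, and all 15 genes of the mevalonate segment and the sterol branch lie right of 0.

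Further genes of the same pathways were counted from a list of 36, of which 35 had a row and 32 were tested. With ET-3, 13 were higher and 14 lower (40.6% and 43.8%, against 30.6% and 33.2% of all tested genes). With NT, 13 were higher and 13 lower (40.6% each, against 29.7% and 32.5%). Elovl3, another elongase, had 22 and 15 in DMSO, 77 and 78 under ET-3 and 84 and 73 under NT, log2 fold changes of 2.03 and 2.05. Idi2, the paralog of Idi1, had 13 and 22 in DMSO and was at 0 in all 4 treated libraries, which makes it at least 5.11-fold lower under ET-3 and at least 7.13-fold lower under NT, against a floor of 3 reads per library.

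Fatty acid activation changed as well. Acsl1, a long-chain acyl-CoA synthetase, fell from 655 and 671 to 163 and 132 under ET-3 and 153 and 169 under NT, and the log2 fold changes of Acsl6 were -1.99 and -2.14. Acsl5, of the same family, rose by 1.13 and 1.00. Lpin1, a phosphatidate phosphatase, changed by -1.3 and -1.22, and Mylip, which marks the LDL receptor for degradation, by -2.11 and -1.84. Hacd4, a dehydratase, fell at low values (-2.95 and -1.54), with a mean of 26.5 in DMSO, 3 under ET-3 and 9 under NT. Tm7sf2, a sterol reductase, fell as well (-1.23 and -1.01). Nr1h3, the LXR alpha receptor, and Mlxipl, the carbohydrate response factor, rose at low values (1.5 and 1.58, and 1.64 and 1.77). In each pair the first number belongs to ET-3 and the second to NT.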

How the data were processed

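RNA-seq of FACS-purified MuSCs was measured in 6 libraries of 3 groups, assigned by their sample labels. The table deposited by the authors gives whole numbers, 1 column for each library, which were treated as a read signal. The study's methods name Reaper, STAR and featureCounts and a stranded kit, whereas the submitters' processing notes name Trimmomatic 0.38, STAR 2.7.7a, featureCounts 1.6.5 and DESeq2 1.30.0 on mm10, and the labels name the SMART-Seq HT kit. The signal values deposited by the authors have the pattern of read counts scaled by a factor of each library and then rounded, with factors of 0.781 to 1.19146, so count models were not used. That corresponds to 3629301 to 5396581 reads on genes per library.

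Values were tested as log2(value + 1) with limma 3.58.1 in R 4.3.3 (lmFit, contrasts and eBayes with trend) over all 6 libraries, for the 13921 genes whose mean value reached 5. Benjamini-Hochberg adjustment covered all tested genes. With the pseudocount, changes of genes with low values are understated. Simulated data for ET-3 against DMSO covered 13900 genes with a fixed spread. Only 63, 65 and 65 of them were changed, by 0.5, 1 and 2 on the log2 scale. Of these, 33.3%, 70.8% and 92.3% were called, with 2 false calls among the rest. In the measured data, 30.6% of genes were called higher and 33.2% lower, so the adjusted threshold was less strict there. The simulated shares therefore do not give the power of the fit in the measured data. Gene positions and exonic lengths came from GENCODE M21 on GRCm38. Values of overlapping genes are uncertain where reads were shared.

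The members and all lists were chosen with earlier results of these data known. Full statistics were given for members past both thresholds under a ligand and for the 2 members of each role with the largest mean change, and other pathway genes were named when past both thresholds under both ligands. Some of these are not reported here. Alternatives covered the filter, the scaling, the pseudocount, voom weights on recovered reads, a replicate block, a fit of the 2 groups alone, averaged treated pairs, each library left out, and a correction for a trend with reads per exonic base. No pairing of the libraries by replicate number was seen, and the check could not exclude one. Tables and plots used Python 3.11.15, numpy 2.4.6, pandas 2.3.3 and matplotlib 3.10.9. Intervals are those of limma at 95%.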

Additional observations from a re-analysis of the deposited data

Results flagged for a closer look

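For 3 genes the changes under the ligands differed from each other by the test of NT against ET-3 (limma, adjusted over all tested genes). Fads2 differed by 0.33 on the log2 scale, Hmgcs1 by 0.28 and Msmo1 by 0.38, each higher with NT in 2 of 2 libraries. None of the 3 passed when any 1 library was left out, without the filter on low values, with the replicate block, in a fit of both groups alone or with treated pairs averaged, and the highest adjusted p over the alternatives was 0.712 for each.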

How the results depend on the processing

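Each called change of a member kept its direction under all alternatives run. When the 2 libraries of a ligand were averaged into 1 sample, 2 members were higher (0 past the fold of 2) and 15 lower (2 past it) with ET-3, and 2 were higher (0 past it) and 9 lower with NT. A pseudocount of 5 left 1 member past the fold of 2 upward with ET-3. Over the fits without 1 library each, the members past the fold of 2 upward were 1 to 2 with ET-3 and 1 to 3 with NT. The 1 came without the first DMSO library for ET-3 and without the second for NT, and the 3 without the first NT library. Without the first DMSO library, 6 member calls were lost with ET-3 and 6 with NT.

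For NT against ET-3, where 3 members were higher, the count was 0 without the filter, with the replicate block, in a fit of both groups alone, with averaged pairs and in each fit without 1 library. It was 5 with each library scaled to the same total, 5 with a pseudocount of 5, 7 with voom weights and 2 with the trend against reads per exonic base removed, which was chosen after seeing the data. In the fits without 1 library and in the replicate block, 0 of all genes were called in this comparison, and fewer libraries or degrees of freedom entered. No pairing by the replicate numbers of the labels was seen, with correlations of same-numbered deviations of -0.008, -0.07 and -0.022. The ligand pairs differed by about sampling noise, so this check could not exclude a pairing. The replicate block left 25 members lower with ET-3 and 20 with NT, against 25 and 21 without it. The cause of the other changes was not tested. Low depth limits Elovl7, Acacb, Fdps and Idi1 most, whose errors were the widest among the members.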
